A study of Mus musculus with 5 samples.

Results

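Polycomb genes encode the subunits of the repressive complexes PRC1 and PRC2, and 10 of them, Ezh1, Ezh2, Eed, Suz12, Jarid2, Mtf2, Rnf2, Cbx2, Cbx7, and Bmi1, were followed across 5 mouse RNA-seq libraries. The genes were chosen by symbol, with earlier results of these data known, and all 10 were found among the 24421 genes that both deposited expression tables list. The libraries came from MEFs (fibroblasts of CF-1 mouse embryos taken at E13.5), from an iPSC line bought from a cell collection, and from V6.5 mouse embryonic stem cells in 3 states. The V6.5 cells were untreated, transfected with a non-targeting control shRNA (NTC), or transfected with an shRNA against Gldc (shGldc), the glycine decarboxylase of the mitochondrial glycine cleavage system. The study compared somatic with pluripotent cells and asked what loss of Gldc does to pluripotent cells. Per the labels, the stem cells were grown free of feeder cells on gelatin in a medium with serum replacement and leukaemia inhibitory factor, and the MEFs in a medium with fetal bovine serum, so cell type and medium cannot be told apart. Each condition was 1 library of 1 line or culture, so no difference has a replicate check, and no p-value is given.

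PRC2 places methyl groups on a lysine of histone H3 (H3K27) through its catalytic subunit, EZH1 or EZH2, which works only together with EED and SUZ12. JARID2 and MTF2 are accessory subunits of alternative forms of PRC2 that help to bring it to chromatin. PRC1 ubiquitinates histone H2A through RING1 or RNF2, paired with 1 of the PCGF proteins, of which BMI1 is one, and its canonical forms carry a CBX protein that binds the mark of PRC2. In pluripotent cells these complexes are known to keep developmental regulators silent but ready to be switched on.

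Levels are in FPKM, the fragments of a transcript scaled by its length and by the depth of the library, which can be compared between genes because they are scaled by length. MEFs, iPSCs, and untreated V6.5 cells are in the first table, and NTC and shGldc in the second, which was made separately. A step between low values gave a depth of 22.1 to 24.7 (in units of 1e6 fragments) for the libraries of the first table. In the second table the same estimate left 2 answers, about 14.5 or 28.99 in NTC and 14.4 or 28.7 in shGldc in the same unit. Gldc had an FPKM of 74.7 in NTC and 2.07 in shGldc, in the direction of the label. The 8 pluripotency markers summed to an FPKM of 3.28 in MEFs and to between 3753 and 7023 in the stem cell libraries, and the 8 fibroblast markers to 8068 in MEFs and to between 95.2 and 164.3 in the stem cell libraries. Collagen RNA was higher in the untreated V6.5 library than in iPSCs, with Col1a1 at 20.5 against 1.68 FPKM and Col1a2 at 15.3 against 0.857, and its source was not tested. The MEF library also held macrophage markers, with C1qa at 52.7 and Lyz2 at 142 FPKM and a sum of 300.8 over 8 markers, against 10.9 to 20.6 in the stem cell libraries, where most of the sum was Cd68. What part the macrophage RNA had in the MEF values below was not tested. In bulk samples, fewer cells of a type and less RNA per cell cannot be told apart.

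In the GENCODE M21 annotation of mm10, the build the authors mapped to, 3 of the genes lie on chromosome 11, Suz12 at chr11:79993106-80034123, Ezh1 at chr11:101191115-101226463, and Cbx2 at chr11:119022962-119031270. Of the other PRC2 genes, Ezh2 lies at chr6:47530139-47595341, Eed at chr7:89954654-89980983, Jarid2 at chr13:44729474-44921643, and Mtf2 at chr5:108065674-108109004. Of the PRC1 genes, Rnf2 lies at chr1:151458004-151500955, Cbx7 at chr15:79915807-79971119, and Bmi1 at chr2:18677018-18686629. The values are for whole genes, so they do not tell isoforms apart.

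The 10 genes summed to an FPKM of 60.9 in MEFs, 376.9 in iPSCs, 276.4 in untreated V6.5 cells, 295.7 in NTC, and 251.5 in shGldc. In MEFs the levels ran from 0.572 for Cbx7 to 14.4 for Eed, with Ezh2 and Rnf2 next below Eed. In iPSCs Jarid2 was the highest at 82.9, in untreated V6.5 cells Eed at 50.3, in NTC Cbx7 at 62.2, and in shGldc Jarid2 at 50.6. Bmi1 was the lowest of the 10 in all 4 stem cell libraries, and Cbx7 moved from the lowest place in MEFs to a place among the 3 highest in each stem cell library. Neighbours in these orders could not be judged against a spread, since there were no replicates.

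**Figure D1:**
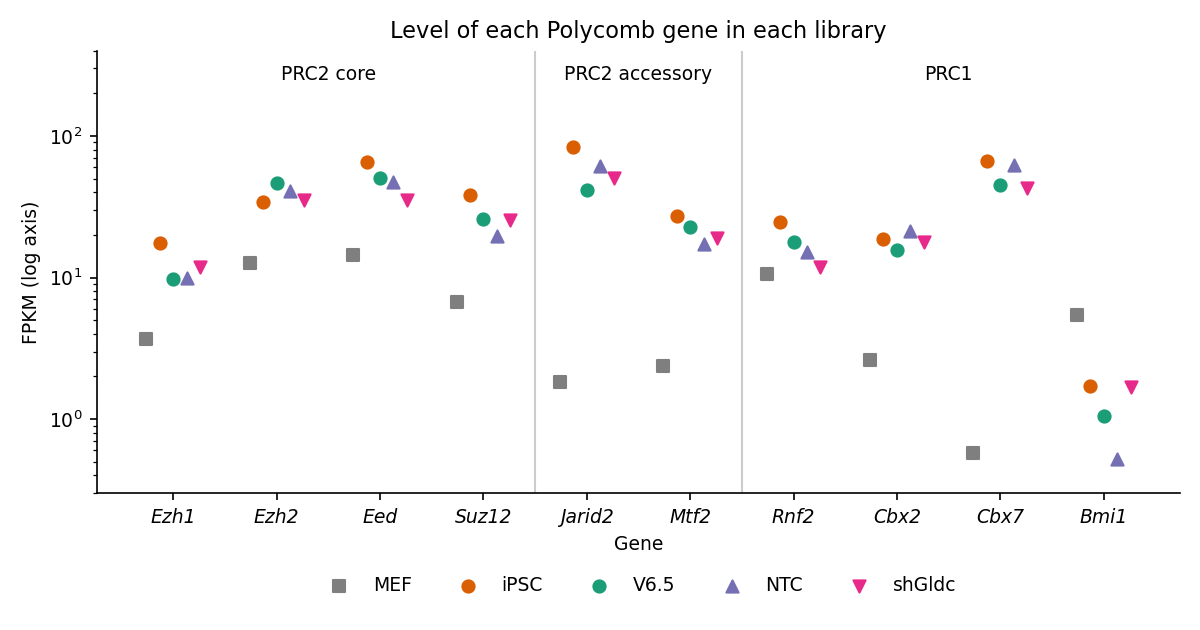
FPKM on a log axis of the 10 Polycomb genes, grouped as core PRC2, accessory PRC2, and PRC1 subunits, with 1 point for each of the 5 libraries. For 9 genes the MEF point lies below the stem cell points, with the widest gaps at Cbx7 (0.572 in MEFs) and Jarid2 (1.84), while for Bmi1 the MEF point, at 5.43, lies above them.

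All 4 core PRC2 genes were lower in MEFs than in any stem cell library. Ezh1, the catalytic subunit that is also active in cells that do not divide, had an FPKM of 3.65 in MEFs, 17.5 in iPSCs, 9.69 in untreated V6.5 cells, 9.87 in NTC, and 11.96 in shGldc. Ezh2, the more active catalytic subunit of dividing cells, had 12.7 in MEFs, 34.1 in iPSCs, 46.5 in untreated V6.5 cells, 41.2 in NTC, and 35.2 in shGldc. Both catalytic subunits were therefore lowest in MEFs, but Ezh1 was highest in iPSCs and Ezh2 in untreated V6.5 cells. Against MEFs, the FPKM of Ezh1 was 2.65-fold higher in untreated V6.5 cells and 4.79-fold higher in iPSCs. For Ezh2 the folds were 3.66 in untreated V6.5 cells and 2.68 in iPSCs.

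Eed, whose protein binds methylated H3K27 and stimulates the enzyme, had an FPKM of 14.4 in MEFs, 65.1 in iPSCs, 50.3 in untreated V6.5 cells, 47.2 in NTC, and 35.2 in shGldc. Suz12, the scaffold of the complex, had 6.69 in MEFs, 38.3 in iPSCs, 25.9 in untreated V6.5 cells, 19.7 in NTC, and 25.4 in shGldc. Both genes were highest in iPSCs. Eed was 3.49-fold higher in untreated V6.5 cells than in MEFs and 4.51-fold higher in iPSCs. Suz12 was 3.88-fold higher in untreated V6.5 cells than in MEFs and 5.72-fold higher in iPSCs. Eed exceeded Suz12 in every library, by 1.39-fold in shGldc to 2.39-fold in NTC.

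The promoters of the 2 catalytic subunits and of Suz12 are shown because these genes encode the core that was higher in all stem cell libraries and because they differ in 2 short words known from promoters of growth and cell cycle genes. They are given 5′ to 3′ on the strand of the gene, from RefSeq on GRCm38.p6, as stretches upstream of the start that hold no annotated exon. Capitals mark CCAAT (on either strand, so also ATTGG), the E2F words TTTCCCGC, TTTCGCGC, TTTGCCGC, and TTTGGCGC on either strand, and the E-box CACGTG. Ezh1 lies on the minus strand, with the stretch at chr11:101226464-101226713. Ezh2 lies on the minus strand, with the stretch at chr6:47595059-47595183. Suz12 lies on the plus strand, with the stretch at chr11:79992856-79993105.
Ezh1: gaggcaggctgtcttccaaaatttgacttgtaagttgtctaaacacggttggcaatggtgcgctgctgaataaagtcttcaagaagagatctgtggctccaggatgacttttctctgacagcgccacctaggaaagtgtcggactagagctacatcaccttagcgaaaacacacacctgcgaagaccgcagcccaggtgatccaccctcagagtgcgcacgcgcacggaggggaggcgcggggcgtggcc
Ezh2: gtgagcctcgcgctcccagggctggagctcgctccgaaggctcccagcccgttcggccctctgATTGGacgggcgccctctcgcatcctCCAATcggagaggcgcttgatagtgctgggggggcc
Suz12: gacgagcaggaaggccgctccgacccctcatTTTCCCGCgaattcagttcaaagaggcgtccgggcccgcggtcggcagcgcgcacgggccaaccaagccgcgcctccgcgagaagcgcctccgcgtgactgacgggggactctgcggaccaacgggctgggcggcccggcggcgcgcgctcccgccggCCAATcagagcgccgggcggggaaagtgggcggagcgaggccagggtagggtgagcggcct

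The Ezh1 stretch held none of these words. The Ezh2 stretch held CCAAT on both strands. The Suz12 stretch held a CCAAT box and an E2F word. Suz12 was the only 1 of 9 members with a promoter in the reference to hold an E2F word within 250 bases before the start, against 1.86% of all 32851 promoters. CCAAT was found in 5 members (Cbx7, Ezh2, Jarid2, Mtf2, and Suz12) and in 33.8% of all promoters. The GC box GGGCGG was found in 6 members (Bmi1, Cbx7, Jarid2, Mtf2, Rnf2, and Suz12) and in 32.7% of all promoters, and it can share bases with an E2F word. Each word was counted by itself on both strands, and a match describes only the letters in this window.

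The 2 accessory PRC2 genes lay further from their MEF levels than the core genes. Jarid2, a DNA-binding relative of histone demethylases that has no such activity of its own, had an FPKM of 1.84 in MEFs, 82.9 in iPSCs, 41.7 in untreated V6.5 cells, 61.1 in NTC, and 50.6 in shGldc. Mtf2, a Polycomb-like protein that binds CpG-rich DNA, had 2.37 in MEFs, 27.4 in iPSCs, 22.8 in untreated V6.5 cells, 17.3 in NTC, and 19.1 in shGldc. No stem cell library came near the MEF level of either gene. Jarid2 was 22.7-fold higher in untreated V6.5 cells than in MEFs and 45.1-fold higher in iPSCs. Mtf2 was 9.63-fold higher in untreated V6.5 cells than in MEFs and 11.6-fold higher in iPSCs. In MEFs the level of Jarid2 was 0.776 times that of Mtf2, whereas in the stem cell libraries it was 1.83 to 3.52 times that of Mtf2.

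Among the PRC1 genes, Rnf2 and Cbx2 were moderately and Cbx7 strongly higher in the stem cells, and Bmi1 was lower. Rnf2, the catalytic E3 ligase also known as Ring1b, had an FPKM of 10.5 in MEFs, 24.5 in iPSCs, 18.0 in untreated V6.5 cells, 15.2 in NTC, and 11.9 in shGldc. Its shGldc value lay close to its MEF value. Rnf2 was 1.702-fold higher in untreated V6.5 cells than in MEFs, the only member under the 2-fold limit there, and 2.32-fold higher in iPSCs. Cbx2, a chromodomain protein known for compacting chromatin, had 2.63 in MEFs, 18.6 in iPSCs, 15.6 in untreated V6.5 cells, 21.4 in NTC, and 17.8 in shGldc. It was 5.92-fold higher in untreated V6.5 cells than in MEFs and 7.06-fold higher in iPSCs.

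Cbx7, known as the main chromodomain subunit of canonical PRC1 in embryonic stem cells, had an FPKM of 0.572 in MEFs, 66.8 in iPSCs, 44.9 in untreated V6.5 cells, 62.2 in NTC, and 42.6 in shGldc. This was the widest span of any member. Relative to MEFs, it was 78.4-fold higher in untreated V6.5 cells and 116.8-fold higher in iPSCs. In MEFs, the value stood for about 47.6 fragments, if the longest transcript was the one counted, and its 95% Poisson interval ran from 0.421 to 0.759 FPKM, counting error only.

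Bmi1 (Pcgf4), the PCGF subunit known for repressing the Cdkn2a locus in somatic stem cells, had an FPKM of 5.43 in MEFs, 1.71 in iPSCs, 1.04 in untreated V6.5 cells, 0.526 in NTC, and 1.69 in shGldc. It was the only member that was highest in MEFs. Its FPKM was 5.20-fold lower in untreated V6.5 cells than in MEFs and 3.17-fold lower in iPSCs. Of its 50-nt stretches, 16.7% are also found in transcripts of other genes, mainly the pseudogene Gm5946, so its reads could have been split or shared. For the other members this share was at most 0.31%.

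The promoters of Cbx7 and Bmi1 are shown because these genes had the largest differences from MEFs in each direction, with capitals as above. The Cbx7 stretch lies at chr15:79932769-79932896 on the minus strand, upstream of 1 of the annotated starts. The Bmi1 stretch lies at chr2:18676768-18677017 on the plus strand.
Cbx7: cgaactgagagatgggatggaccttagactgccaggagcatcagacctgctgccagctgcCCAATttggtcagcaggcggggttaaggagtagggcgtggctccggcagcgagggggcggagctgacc
Bmi1: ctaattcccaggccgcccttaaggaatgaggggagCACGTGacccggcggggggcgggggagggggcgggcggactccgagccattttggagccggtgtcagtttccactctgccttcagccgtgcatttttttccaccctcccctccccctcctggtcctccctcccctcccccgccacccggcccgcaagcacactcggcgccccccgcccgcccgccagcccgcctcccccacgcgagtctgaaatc

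The Cbx7 stretch held a CCAAT box and the Bmi1 stretch held none. The Bmi1 stretch held the E-box CACGTG, which no other member had and which 6.02% of all promoters had. TATAAA was found in Jarid2 and in 12.4% of all promoters. The octamer ATGCAAAT (1.6% of all promoters), the ETS word CCGGAAGT (2.88%), and the NRF1 word GCATGCGC (2.26%) were found in 0 members. The 9 members had 11 promoter windows, of which 10 held 12 to 37 CpG dinucleotides, with the fewest in Eed and the most in Suz12, against a median of 6 over all promoters. The exception was the second start of Mtf2, with 2. Bmi1 had 21 CpGs and Cbx7 had 23, so the count did not separate the genes with the largest differences in each direction. Cbx2 had no entry among the reference promoters.

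Set against MEFs, untreated V6.5 cells had 8 of the 10 Polycomb genes up by 2-fold or more and 1 (Bmi1) down by as much. Ratios were taken as differences of log2(FPKM + 0.1), a scale that makes the change of low genes look smaller than it was. Genes entered where 1 of the compared libraries had an FPKM of 1 or more, a filter that all 10 passed in every comparison. Among all 12840 genes compared, the shares past the same limit were 30.3% higher and 23.3% lower. The median log2 ratio of the 10 genes was 1.90, and that of all genes 0.25. In iPSCs against MEFs, 9 of the 10 were 2-fold or more higher and 1 (Bmi1) lower, beside 31.5% and 21.3% of 13032 genes. There the median of the 10 genes was 2.36 and that of all genes 0.31. Both comparisons rest on the same MEF library, and the 10 genes were chosen with earlier results of these data known. Rescaling the libraries to equal FPKM sums brought the medians of all genes to 0.01 and 0.02, and relative to the median of all genes the 10 genes stood at 1.65 in untreated V6.5 cells and 2.05 in iPSCs, with Rnf2 in iPSCs then under 2-fold at a log2 ratio of 0.89.

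Placed among all genes, Cbx7 had the highest ratio of the 10, with a log2 ratio of 6.06 in untreated V6.5 cells and 6.64 in iPSCs. Only 1.57% of all genes had a larger ratio than Cbx7 in untreated V6.5 cells, and 1.22% in iPSCs. Jarid2 followed with log2 ratios of 4.43 and 5.42, exceeded by 4.595% and 2.83% of all genes. Mtf2 stood at 3.21 and 3.48, exceeded by 9.17% and 8.85%. The core PRC2 genes, with log2 ratios of 1.38 to 1.94 in untreated V6.5 cells and 1.42 to 2.50 in iPSCs, stood inside the range that held the middle of all genes, and 16.1% to 23.2% of all genes had a larger ratio in untreated V6.5 cells. Bmi1, at -2.27 and -1.61, had a lower ratio than most genes, with 10.7% of all genes below it in untreated V6.5 cells and 14.6% in iPSCs. Most markers of dividing cells were also higher than in MEFs. The 14 proliferation genes summed to an FPKM of 477.7 in MEFs, 1547 in iPSCs, and 2119 in untreated V6.5 cells. Their median log2 ratio over MEFs was 1.46 in iPSCs and 1.93 in untreated V6.5 cells. The order of these medians was the reverse of that of the 10 members, at 2.36 in iPSCs and 1.90 in untreated V6.5 cells. The part of the proliferation genes in the Polycomb differences was not tested.

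**Figure D2:**
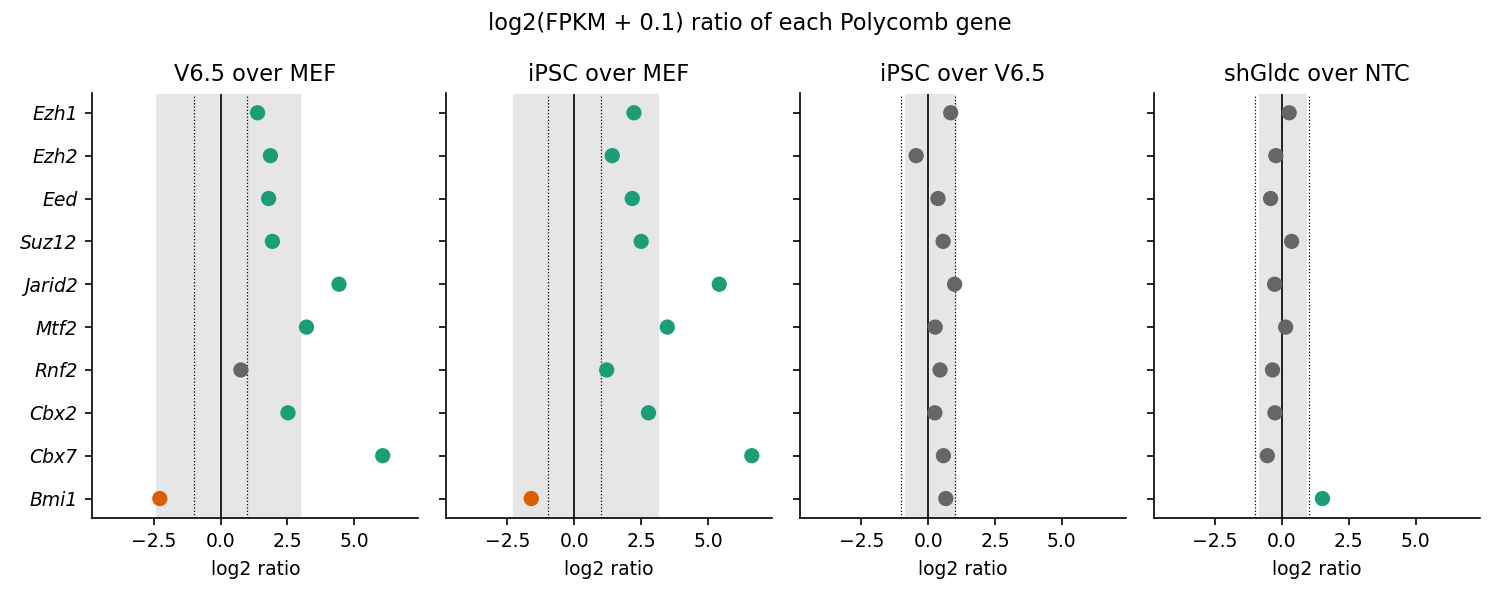
Ratio of each Polycomb gene on the log2(FPKM + 0.1) scale in 4 comparisons, with 1 point per gene, dotted lines at 2-fold, and a grey band that holds the ratios of all genes from the 10th to the 90th percentile. Jarid2, Mtf2, and Cbx7 lie to the right of the band in both comparisons with MEFs, while of the comparisons among stem cells only Bmi1 in shGldc, at 1.52, lies past a dotted line.

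The 2 untreated pluripotent lines differed much less from each other. Between iPSCs and untreated V6.5 cells, 0 of the 10 Polycomb genes reached a 2-fold difference in either direction, beside 10.1% (higher) and 7.44% (lower) of 12323 genes. However, 9 of the 10 genes were higher in iPSCs, beside 52.6% of all genes, with a median log2 ratio of 0.50 over the 10 against 0.04 over all genes. Jarid2 came closest to the limit, at 1.99-fold and a log2 ratio of 0.99, followed by Ezh1 at 0.85 and Bmi1 at 0.66. Ezh2 was the exception, with a log2 ratio of -0.45. In the same comparison 13 of the 14 proliferation genes were lower in iPSCs, with a median of -0.41, and whether Ezh2 followed them was not tested. For scale, NTC and untreated V6.5 cells, which are the same line in separately made tables, differed with a robust SD of 0.59 on the log2 scale over 12048 genes, and the other 6 members lay within that size, between 0.25 and 0.57.

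In the Gldc knockdown 9 of the 10 genes were within 2-fold of NTC. The remaining gene, Bmi1, makes 1 of 10 at 2-fold or more higher, beside 8.97% of 11969 genes, and 0 were lower by as much, beside 7.68%. The median log2 ratio was -0.24 over the 10 genes and 0.04 over all genes. Of the 10 genes 4 were higher and 6 lower, where 52.8% of all genes were higher. Cbx7 had the lowest ratio, with an FPKM of 62.2 in NTC and 42.6 in shGldc and a log2 ratio of -0.54. Eed, at -0.42, and Rnf2, at -0.35, came next. The 2 catalytic PRC2 subunits differed in opposite directions, with Ezh1 at 0.27 and Ezh2 at -0.23, and Suz12 stood at 0.36. Leaving out Bmi1, the log2 ratios ran from -0.54 to 0.36, inside the robust SD of 0.59 between the NTC and untreated libraries, which are in separate tables. The robust SD of shGldc over NTC itself was 0.53 over all genes, and of these 9 members only Cbx7 lay just past it.

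Bmi1 was 3.21-fold higher in shGldc than in NTC, with FPKM values of 1.69 and 0.526 and a log2 ratio of 1.52, and 4.79% of all genes had a larger ratio. The NTC value stood for about 27.4 fragments at the lower depth estimate, with a 95% Poisson interval of 0.348 to 0.764 FPKM, and the interval of the shGldc value was 1.35 to 2.08. These intervals do not overlap but cover counting error only. Untreated V6.5 cells had 1.04 FPKM of Bmi1, 1.98-fold more than NTC, so the NTC value was the low one of the 2 controls. When the untreated V6.5 library served as control, the log2 ratio of Bmi1 in shGldc was 0.65, under 2-fold.

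The other members also changed with the choice of control. From untreated V6.5 cells to NTC, 0 of the 10 differed by 2-fold in either direction, beside 4.99% (higher) and 10.3% (lower) of all genes, and the median of the 10 was -0.13 against -0.06 over all genes. Against untreated V6.5 cells, the log2 ratios in shGldc turned in sign for 4 genes, to -0.03 for Suz12, 0.28 for Jarid2, -0.25 for Mtf2, and 0.19 for Cbx2. Cbx7 went from -0.54 to -0.07. The median of the 10 genes in shGldc was then -0.05, against -0.02 over all genes. Ezh1 stayed higher and Ezh2, Eed, and Rnf2 stayed lower with either control.

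Shares within a gene family do not depend on how a library was scaled, but other differences between the 2 tables would remain in them. In the V6.5 line, for instance, Pcgf2 held 32.1% of the PCGF sum in untreated cells and 49.8% in NTC. The share of Ezh1 in the summed FPKM of Ezh1 and Ezh2 was 22.3% in MEFs, 33.9% in iPSCs, 17.3% in untreated V6.5 cells, 19.3% in NTC, and 25.4% in shGldc. Ezh2 was thus the main catalytic subunit in every library, with the smallest lead in iPSCs at 1.95-fold and the largest in untreated V6.5 cells at 4.80-fold. Rnf2 held 54.7% of the sum with its paralogue Ring1 in MEFs, 72.2% in iPSCs, 54.6% in untreated V6.5 cells, 61.1% in NTC, and 50.8% in shGldc. The RING pair therefore did not separate MEFs from stem cells, as MEFs and untreated V6.5 cells had nearly the same share.

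The sum of 4 CBX genes was made up differently in MEFs and stem cells. Cbx7 held 1.61% of the summed FPKM of Cbx2, Cbx6, Cbx7, and Cbx8 in MEFs, 64.1% in iPSCs, 63.2% in untreated V6.5 cells, 62.8% in NTC, and 51.9% in shGldc. Cbx6, the leading gene of the 4 in MEFs, held 75.2% there and 11.2%, 12.6%, 12.1%, and 17.4% in iPSCs, untreated V6.5 cells, NTC, and shGldc. Cbx2 held 7.39% in MEFs and between 17.8% and 21.9% in the stem cell libraries. The share of Cbx7 was thus nearly equal in iPSCs, untreated V6.5 cells, and NTC, and lowest of the 4 in shGldc. There the share of Cbx8 was 9.01%, against 3.61% in NTC, 2.25% in untreated V6.5 cells, and 6.81% in iPSCs.

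Bmi1 was a minor part of its family everywhere. Its share of the summed FPKM of the 6 PCGF genes was 10.8% in MEFs, 2.27% in iPSCs, 1.29% in untreated V6.5 cells, 0.644% in NTC, and 1.99% in shGldc. Pcgf2 (Mel18), the closest relative of Bmi1, held 22.2% in MEFs and from 32.1% in untreated V6.5 cells to 49.8% in NTC. Pcgf6, a subunit of a form of PRC1 without a CBX polycomb protein, held 7.85% in MEFs and 17.6% to 24.6% in the stem cell libraries. Among the Polycomb-like proteins, Mtf2 held 16.1% in MEFs, 75.0% in iPSCs, 72.8% in untreated V6.5 cells, 70.2% in NTC, and 79.1% in shGldc, and Phf1 60.02% in MEFs and 9.61% to 16.3% in the stem cell libraries. However, 39.3% of the exon bases of Phf1 overlap other annotated genes.

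**Figure D3:**
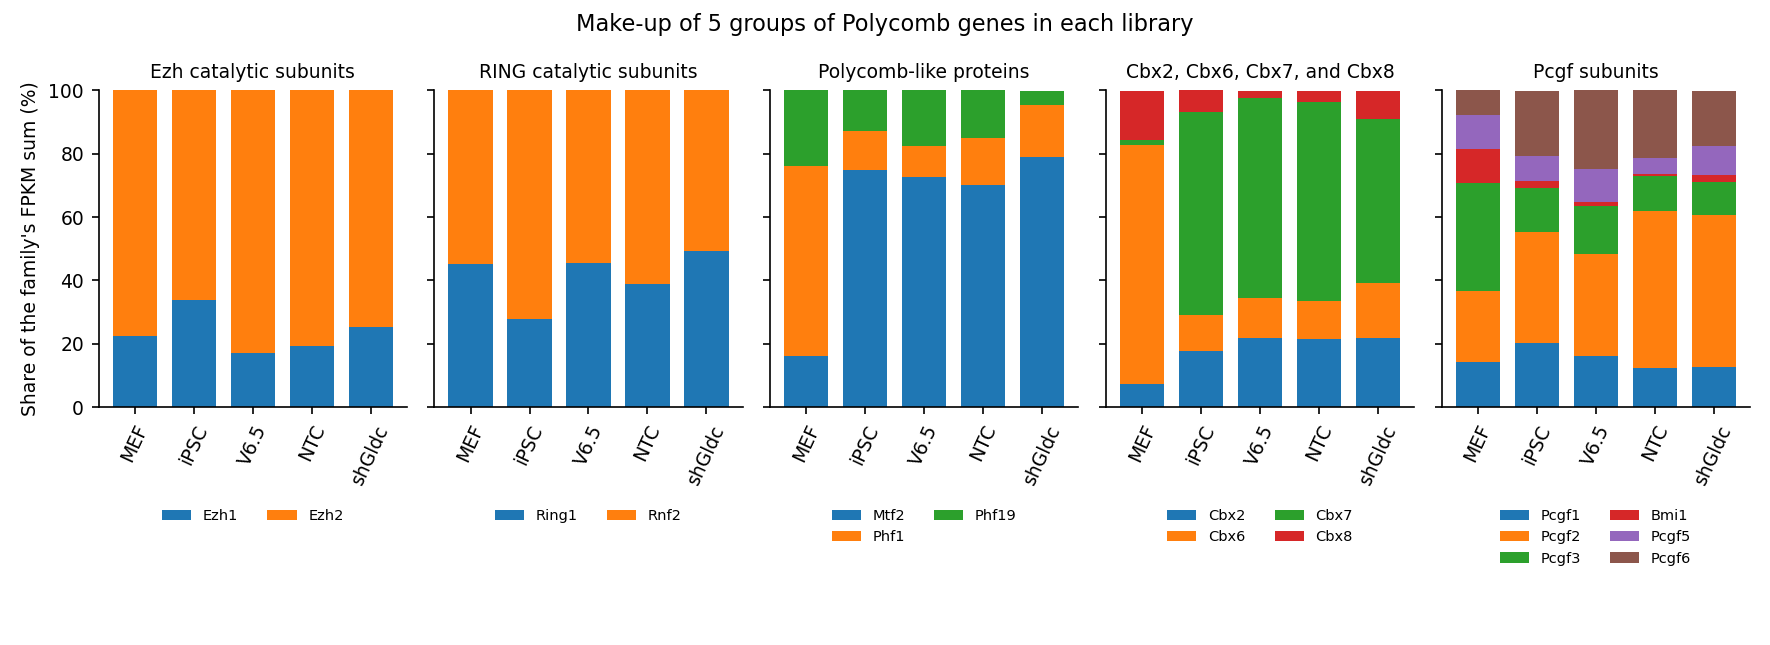
Share in percent of each gene in the summed FPKM of its group, for 5 groups of related Polycomb genes, with 1 stacked bar per library. The bar of MEFs differs from the stem cell bars in the Polycomb-like and CBX groups, where Mtf2 goes from 16.1% to at least 70.2% and Cbx7 from 1.61% to at least 51.9%, and less so in the Ezh and RING pairs.

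The wider set of Polycomb genes held higher and lower genes side by side. Of 38 further genes of PRC2, PRC1, and the enzymes that remove their marks, 34 passed the filter in untreated V6.5 cells against MEFs, of which 11 were up by 2-fold or more and 6 down, beside 30.3% and 23.3% of all genes, and their median log2 ratio was 0.58. In iPSCs against MEFs, 11 of 34 were up by 2-fold or more and 4 down, beside 31.5% and 21.3% of all genes, with a median of 0.50, and relative to the median of all genes these counts were 6 and 7. The largest ratios belonged to Epop, a PRC2 partner that also binds elongin, with an FPKM of 4.82 in MEFs, 883.6 in iPSCs, 145.2 in untreated V6.5 cells, 786.6 in NTC, and 446.0 in shGldc, and to Ezhip, an inhibitor of EZH2 that was listed at 0 in MEFs and at 27.6, 8.96, 11.96, and 24.4 in the same order of stem cell libraries. Epop also differed 5.42-fold between NTC and untreated V6.5 cells, more than any of the 10 members. Phc1, a polyhomeotic subunit of canonical PRC1, had 9.95 in MEFs, 197.5 in iPSCs, 132.6 in untreated V6.5 cells, 95.6 in NTC, and 49.7 in shGldc.

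Some subunits of PRC1 forms without a CBX polycomb protein were past 2-fold, in both directions. Others were not, such as Pcgf3, at -0.48, and Pcgf5, at 0.66, in untreated V6.5 cells over MEFs. L3mbtl2 had log2 ratios over MEFs of 2.88 in untreated V6.5 cells and 3.02 in iPSCs, and Pcgf6 of 2.31 and 1.95. Rybp, which takes the place of the CBX proteins, had log2 ratios of 2.05 and 1.98, and its paralogue Yaf2 of -1.47 and -1.32. Auts2, a subunit of another such form, had a log2 ratio of -1.05 in iPSCs but of -0.40, under 2-fold, in untreated V6.5 cells. Phc3, a polyhomeotic subunit like Phc1, was lower in untreated V6.5 cells, with a log2 ratio of -2.12. For L3mbtl2 17.2% of the exon bases overlap other annotated genes. Between iPSCs and untreated V6.5 cells, 4 of 34 genes were 2-fold or more up and 0 down, beside 10.1% and 7.44% of all genes, with log2 ratios of 2.60 for Epop, 2.08 for Cbx8, 1.61 for Ezhip, and 1.11 for Phc3.

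In shGldc against NTC, 2 of 33 further Polycomb genes were 2-fold or more up and 2 down, beside 8.97% and 7.68% of all genes, and the median was 0.01. Phf19, a relative of Mtf2, had a log2 ratio of -1.64 and Auts2 of -1.23. With the untreated V6.5 library as control, Phf19 stood at -2.21, but Auts2 at -0.32, under 2-fold. Cbx8 stood at 1.03 and Ezhip at 1.02, both at 0.99 relative to the median of all genes and so just under 2-fold. Against untreated V6.5 cells, 3 of 33 were up by 2-fold or more and 2 down, beside 9.89% and 13.9% of all genes. Those up were Cbx8, at 2.14, Epop, at 1.62, and Ezhip, at 1.44. Those down were Phf19 and, at -1.41, Phc1. Between the 2 controls, NTC and untreated V6.5 cells, Epop, at 2.44, and Cbx8, at 1.12, were higher and Pcgf5, at -1.03, was lower.

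Known targets of the complexes were read in the same libraries, from a list of 36 developmental regulators and cell cycle inhibitors. The list was written with earlier results of these data known, among them that Hoxb1 and Hoxb2 are high in shGldc. Its counts are therefore no independent evidence, and leaving out these 2 genes does not change that. The number of targets at an FPKM of 1 or more was 15 of 36 in MEFs, 19 in iPSCs, 13 in untreated V6.5 cells, 11 in NTC, and 18 in shGldc. The number was lowest in NTC and highest in iPSCs. In untreated V6.5 cells against MEFs, 22 targets passed the filter, of which 7 were up by 2-fold or more and 13 down, beside 30.3% and 23.3% of all genes. All 7 that were up reached an FPKM of 1 only in the V6.5 cells, so they passed through the library in which they were high. Of the 15 targets at an FPKM of 1 or more in MEFs, 0 were up by 2-fold and 13 were down, beside 20.7% and 26.9% of all genes at that level in MEFs. In iPSCs against MEFs, 24 passed, of which 9 were up and 10 down, beside 31.5% and 21.3%. All 9 again reached an FPKM of 1 only in the iPSCs, and of the 15 at that level in MEFs 0 were up and 10 were down, beside 20.96% and 24.8%. In both comparisons the counts of targets up and down therefore depended on which library admitted them. Of those down, Hand2, Tbx5, Hoxa9, Hoxb2, and Hoxd10 were below an FPKM of 1 in both pluripotent lines. They passed only through the MEF library, in which they were high. Cdkn2b, a cell cycle inhibitor beside Cdkn2a, had an FPKM of 94.4 in MEFs, 5.004 in iPSCs, 5.11 in untreated V6.5 cells, 2.71 in NTC, and 4.85 in shGldc. Cdkn2a itself, the classical target of Bmi1, had 71.3 in MEFs and between 30.6 and 36.02 in the stem cell libraries. Both Cdkn2a and Bmi1 were therefore highest in MEFs.

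Other targets were higher in the stem cells. Olig2, a neural regulator, had an FPKM of 0.117 in MEFs, 14.6 in iPSCs, and 6.54 in untreated V6.5 cells, and Hand1, a mesoderm regulator, 0.0965, 13.6, and 3.01. Eomes, a regulator of early germ layers, had log2 ratios over MEFs of 4.18 in untreated V6.5 cells, and Hoxb2 and Msx1, a homeobox gene of limb and face, of -4.17 and -4.09. In iPSCs Hand2, a relative of Hand1, had a log2 ratio over MEFs of -3.64. Between the pluripotent lines, Cdx2, a trophectoderm and hindgut regulator, had log2 ratios in iPSCs over untreated V6.5 cells of 3.20, Tbx2 of 3.02, and Gata6 of 2.61, while Pax6 stood at -1.67, Gsc at -0.55, and Eomes at -0.41.

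In shGldc against NTC, 19 targets passed the filter, of which 10 were up by 2-fold or more and 1 down, beside 8.97% and 7.68% of all genes. Without Hoxb1 and Hoxb2, 17 passed, of which 8 were up and 1 down. In the same comparison 7 of 8 pluripotency markers were lower, with a median of -0.56, and 13 of 14 proliferation genes, with a median of -0.17. Their part in the target values was not tested. Of all genes that passed the filter, 52.8% were higher. Of the 11 targets at an FPKM of 1 or more in NTC, 9 were higher in shGldc, 3 of them (Gata4, Cdx2, and Msx2) at least 2-fold, and 2 were lower, 1 of them (Olig2) at least 2-fold, beside 4.93% up and 8.17% down of all genes at that level in NTC. A further 8 reached an FPKM of 1 only in shGldc, or 6 (Gata6, Lhx2, Neurog1, Tbx2, Msx1, and Hoxa9) without Hoxb1 and Hoxb2, and these passed only through the library in which they were higher. Msx1 had an FPKM of 0.107 in NTC and 14.9 in shGldc, beside 0.587 in untreated V6.5 cells. Hoxb1 was listed at 0 in NTC and at 9.62 in shGldc, and Hoxb2, with 27.3% of its exon bases overlapping the antisense gene Hoxb3os, at 0.0636 and 12.2. Cdx2 had 5.41 in NTC and 33.3 in shGldc, but 0.274 in untreated V6.5 cells. At the other end, Olig2 stood at a log2 ratio of -1.21, Irx3 at -0.89, and Gsc at 0.08. Olig2 had an FPKM of 15.5 in NTC, 6.62 in shGldc, and 6.54 in untreated V6.5 cells, so it was lower against NTC alone. These values stand beside Polycomb genes of which 9 were within 2-fold, and whether the 2 are related was not tested.

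The targets also differed between the 2 controls. From untreated V6.5 cells to NTC, 16 targets passed the filter, of which 4 were up by 2-fold or more and 4 down, beside 4.99% and 10.3% of all genes. Cdx2, T (a mesoderm regulator), and Msx2 were 19.8-fold, 10.2-fold, and 3.01-fold higher in NTC, and each reached an FPKM of 1 only there, while Hand1, Pax6, and Hoxd13 had log2 ratios of -2.69, -2.23, and -1.31. Cdx2 and Msx2, both up from NTC to shGldc, were thus also up from one control to the other. In shGldc against untreated V6.5 cells, 23 targets passed, of which 11 were up and 3 down, or 9 and 3 without Hoxb1 and Hoxb2, beside 9.89% and 13.9% of all genes. Of the 13 at an FPKM of 1 or more in untreated V6.5 cells, 1 (Gata4) was up and 3 (Pax6, Hand1, and Irx3) were down, beside 6.25% and 14.7% of all genes at that level. The other 10 that were up reached an FPKM of 1 only in shGldc. With this control, which is in the other table, 8 of these 13 were lower and 5 higher, where 9 of 11 were higher with NTC as control. Of all genes that passed the filter, 48.8% were higher with this control and 52.8% with NTC.

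**Figure D4:**
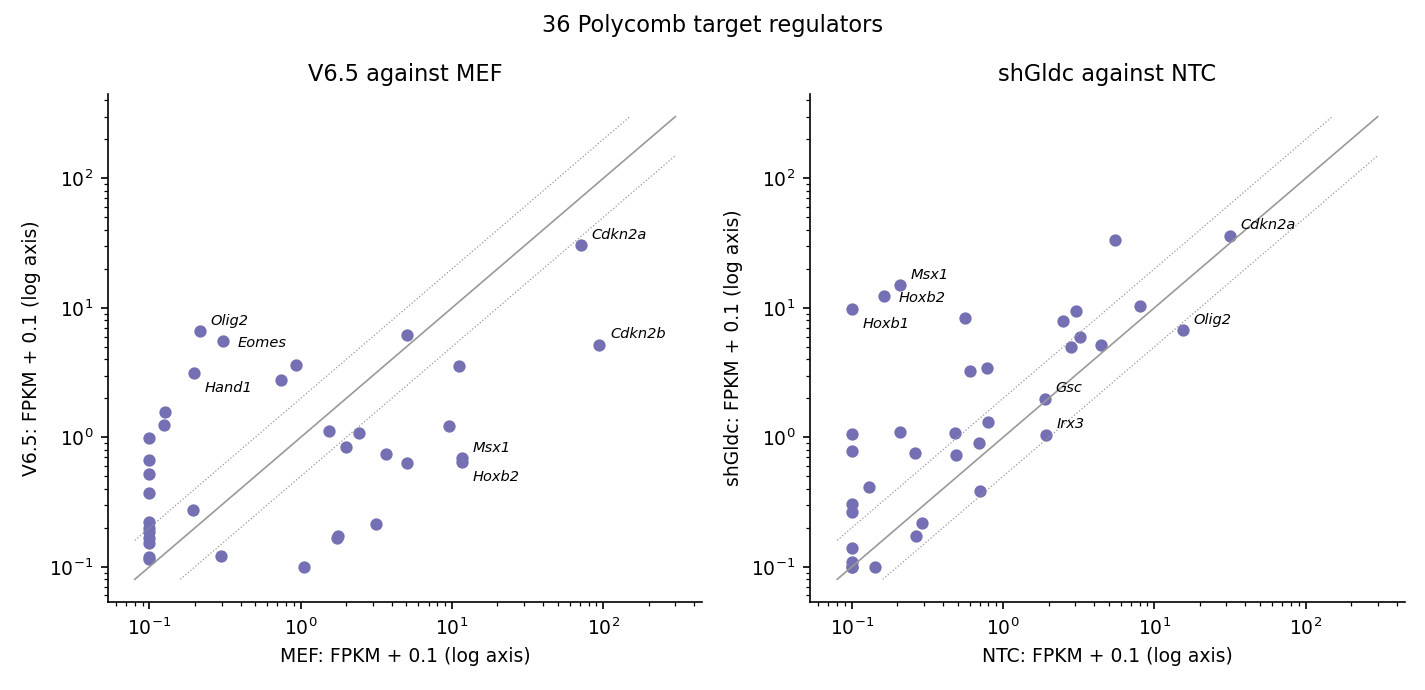
FPKM + 0.1 on log axes of 36 Polycomb target regulators, untreated V6.5 cells against MEFs on the left and shGldc against NTC on the right, with 1 point per gene, the line of equality, and dotted lines at 2-fold. On the left Cdkn2b, Msx1, and Hoxb2 lie far below the line and Olig2, Eomes, and Hand1 far above it. On the right more points lie above the upper dotted line, led by Hoxb1, Hoxb2, and Msx1, than below the lower one. Those named on the right were below an FPKM of 1 in NTC. Of the 11 targets at 1 or more there, 3 were up by 2-fold or more and 1 down. The targets were listed with earlier results of these data known.

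The members did not form 1 tight cluster. By the distance between log2(FPKM + 0.1) values over the 5 libraries, centred within each table, the closest pair was Ezh1 and Suz12 at 0.40, Cbx7 and Jarid2 were each other's nearest members at 1.22, and Bmi1 was furthest from the rest, with Rnf2 nearest at 2.73. For the 3 members with the widest range, the genes with the most similar pattern were taken from 9178 or 9179 genes that had an FPKM of 1 or more in all 5 libraries. Nearest to Cbx7 were the ribosomal protein gene Rpl29 (distance 0.14), of whose 50-nt stretches 35.1% are shared with other genes, and Spint2 (0.44), a protease inhibitor. Nearest to Jarid2 were Nfatc2ip (0.23) and Mkrn1 (0.33), and nearest to Mtf2 were Rbm38 (0.17) and Plekha7 (0.18). By annotation, Eed shared 6.82% of its exon bases with E230029C05Rik, Mtf2 6.93% with Tmed5, Rnf2 3.83% with Trmt1l, Suz12 3.60% with Gm26563, Ezh2 2.61% with Gm26625, and Cbx7 1.54% with Apobec3, and Ezh1, Jarid2, Cbx2, and Bmi1 shared none.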

How the data were processed

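Total RNA of 5 libraries, 1 per condition, was sequenced on the Illumina HiSeq platform. The authors mapped the reads to mm10 with TopHat2 2.1.0, assembled transcripts with StringTie 1.3.4d, and obtained FPKM values with Ballgown, which were deposited as 2 tables, made separately. The processing notes also name mm9 and SAMtools 1.7. The annotation, strand setting, and filters are not given in the sources used here. The values of Ezh2, Suz12, Jarid2, and Mtf2 carry more than 6 decimals and may combine several transcript records.

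Log2(FPKM + 0.1) differences were taken within a table, or across the tables where the untreated V6.5 library was set beside NTC or shGldc, for genes at an FPKM of 1 or more in either library. With 1 library per group no test was run, and the counts past 2-fold are set beside those of all genes. The ratio code was checked on simulated data. All members are named. Of related genes those past 2-fold, up to 6 a comparison, are named, and of the targets the 3 highest and 3 lowest ratios, with the genes of the families shown. Results for 1 related gene are not reported here, and it enters no list or share. Other targets named (Cdkn2a, Gata4, Msx2, Lhx2, Neurog1, Hoxa9, Tbx5, and Hoxd10) and the share of Cbx8 were chosen after their values were seen. The same holds for the ratios of Yaf2, of Rybp, Pcgf3, and Pcgf5 in V6.5 cells, and of Auts2 over MEFs, and for the levels of C1qa, Lyz2, Col1a1, and Col1a2. The members and lists were chosen with earlier results of these data known. Depth came from the step between low FPKM values of genes with a single transcript, and intervals are exact Poisson ones at 95%, which cover counting error only. Sequence words were searched in RefSeq promoters, of which 9 members had one. Alternatives were other pseudocounts, filters, scalings, and the untreated control. The software was matplotlib 3.10.9, scipy 1.17.1, pandas 2.3.3, and numpy 2.4.6 under Python 3.11.15.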

Additional observations from a re-analysis of the deposited data

Results flagged for a closer look

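Cbx8, a CBX protein of the same family as Cbx2 and Cbx7, differed from MEFs in opposite directions in the pluripotent lines. Its log2 ratio over MEFs was -1.75 in untreated V6.5 cells and 0.33 in iPSCs, from FPKM values of 5.61 in MEFs, 1.59 in untreated V6.5 cells, and 7.09 in iPSCs. Relative to the median of all genes the ratio in iPSCs was 0.02. Both ratios share the MEF library, and with 1 library per condition the difference was not tested.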

How the results depend on the processing

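The number of members at least 2-fold higher in shGldc than in NTC, 1 (Bmi1), became 0 with a pseudocount of 1, 0 with a filter of FPKM 5, which Bmi1 did not pass, and 0 with the untreated V6.5 library as control. The log2 ratio of Bmi1 was then 0.82 with the pseudocount of 1 and 0.65 with the other control. With a pseudocount of 1 the log2 ratio of Cbx7 over MEFs was 4.87 in untreated V6.5 cells and 5.43 in iPSCs, and that of Bmi1 in untreated V6.5 cells was -1.65. Every other count of members and all medians of the members kept their direction, and counts stayed within 1.5 times, under pseudocounts of 0.01 and 1, both filters, and the 3 scalings. The related genes up in iPSCs over MEFs fell from 11 to 6 with equal FPKM sums and to 7 with equal upper quartiles, while those down went from 4 to between 2 and 7. The related genes up and down in shGldc, 2 each, ranged from 0 to 4 and from 0 to 3 over the settings. No replicate could be left out. No paired analysis was possible because each group is 1 library and the labels give no replicate numbers. Depth limited Cbx7 in MEFs and Bmi1 in NTC, and the depth of the second table is uncertain by a factor of 2.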
